A study of Mus musculus with 16 samples.

Results

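The 49 genes described here encode the machinery that copies DNA and supplies its nucleotides: origin licensing factors, the replicative helicase, polymerases and primase, the sliding clamp and its loader, single-strand and lagging-strand factors, nucleotide synthesis enzymes, chromatin and methylation maintenance factors, and the E2F activators. They were taken by symbol from a list of genes with these roles, and each was present in the table of conventional T cells (49 of 11171 genes) and in that of regulatory T cells (49 of 11067 genes). In each cell cycle the Mcm2 to Mcm7 helicase is loaded onto origins in late mitosis and G1 by the origin recognition complex, Cdc6 and Cdt1, and is fired in S phase by Cdc45, the GINS complex and Mcm10. E2F transcription factors, held back by the retinoblastoma family until G1 ends, drive many of these genes, so their transcripts are commonly read as a sign of entry into S phase. Peripheral T cells are mostly out of the cycle and take up replication again on antigen or cytokine signals, and regulatory T cells are known to divide more at rest than other CD4+ T cells.

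Venetoclax is an oral inhibitor of the survival protein BCL-2. Mice of strain B6.Cg-Foxp3tm2Tch/J, wild type by label and carrying a GFP reporter behind Foxp3, received 50 mg/kg venetoclax or vehicle for 14 days. Spleen and lymph node cells were sorted into CD4+ FOXP3+ regulatory T cells (Treg) and CD4+ FOXP3- conventional T cells (Tcon), and total RNA was sequenced. There were 4 groups of 4 libraries: venetoclax Treg, vehicle Treg, venetoclax Tcon and vehicle Tcon. All groups share the reporter strain, the tissues and the sort, and the labels used here give no age or sex. The deposited values are read counts divided by 1 size factor per library, called normalized counts below, and libraries of a group are given in the order 1 to 4. Reads summed to between 21335006 and 25027038 per Treg library and to between 22982210 and 24960570 per Tcon library.

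The sort was visible in the markers: Foxp3, Il2ra, Ikzf2 and Ctla4 together had 3126 to 3878 CPM, a unit of reads relative to library size, in Treg libraries, against 71.9 to 127.7 CPM in Tcon libraries. Markers of other cells were at lower levels than these. In Tcon the 2 measured B cell markers summed to 2.13 to 4.56 CPM in venetoclax Tcon and 3.58 to 4.18 CPM in vehicle Tcon, the 3 myeloid markers to 8.01 to 15.5 CPM in venetoclax Tcon and 8.0 to 10.7 CPM in vehicle Tcon, and the 2 erythroid markers to 0.55 to 8.70 CPM in venetoclax Tcon and 0.42 to 2.43 CPM in vehicle Tcon. The NK marker Klrb1c had 12.8 to 32.2 CPM in venetoclax Tcon and 11.7 to 18.3 CPM in vehicle Tcon, the 2 CD8 markers 15.8 to 18.8 CPM in venetoclax Tcon and 16.2 to 22.7 CPM in vehicle Tcon, and the 2 germinal centre B and plasma cell markers 1.96 to 19.03 CPM in venetoclax Tcon and 9.68 to 20.7 CPM in vehicle Tcon. In Treg the 3 B cell markers summed to 14.6 to 21.1 CPM with venetoclax and 15.5 to 20.6 CPM with vehicle, and the 3 erythroid markers to 0.74 to 36 CPM, highest in library 4, with venetoclax and 1.24 to 13.3 CPM with vehicle. Sdc1, Cd14 and Ncr1 were not analysed here. In Tcon 1 of the 4 Treg markers, Il2ra, was higher with venetoclax, and their sum was 74.4 to 127.7 CPM in venetoclax Tcon and 71.9 to 108.3 CPM in vehicle Tcon, whose part in the results below was not tested. By limma no marker of CD8 T, B, plasma, myeloid, NK or erythroid cells passed in either subset, while 1 myeloid marker (Itgam) in Tcon and both CD8 markers and Klrb1c in Treg had an unadjusted p under 0.05. In edgeR and DESeq2 none passed either. With the replicate number as a block, a pairing that the labels do not state, Itgam (0.39 on the log2 scale, adjusted p = 0.0283) and 1 erythroid marker (1.37, adjusted p = 0.0391) were higher in venetoclax Tcon. In Treg the same fit called 2 of the 3 erythroid markers higher and 1 of the 2 CD8 markers lower with venetoclax. The Tcon rises have the direction of the replication genes below, and the part of these markers in the results below was not tested.

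Promoters of the members whose transcripts moved most are shown because E2F binding letters are common among replication genes. Each run is 300 bases of the RefSeq promoter on GRCm38.p6, from 250 bases before to 50 after the start site, 5′ to 3′ on the gene's strand, with E2F letters in capitals.
Mcm10 (chr2:5012742-5013041, minus strand): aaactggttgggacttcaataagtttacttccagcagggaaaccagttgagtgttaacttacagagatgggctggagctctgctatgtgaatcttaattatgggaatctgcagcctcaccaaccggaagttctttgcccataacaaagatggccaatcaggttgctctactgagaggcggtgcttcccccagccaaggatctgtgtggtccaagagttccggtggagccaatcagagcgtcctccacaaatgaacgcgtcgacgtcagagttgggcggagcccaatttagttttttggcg
Dtl (chr1:191575495-191575794, minus strand): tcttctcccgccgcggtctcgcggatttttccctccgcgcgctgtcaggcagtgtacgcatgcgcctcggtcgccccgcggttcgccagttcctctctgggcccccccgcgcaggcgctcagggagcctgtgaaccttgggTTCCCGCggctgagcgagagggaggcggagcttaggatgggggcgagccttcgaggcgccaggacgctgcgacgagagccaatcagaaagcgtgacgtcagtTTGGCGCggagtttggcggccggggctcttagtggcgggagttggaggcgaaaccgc
Pclaf (chr9:65890073-65890372, plus strand): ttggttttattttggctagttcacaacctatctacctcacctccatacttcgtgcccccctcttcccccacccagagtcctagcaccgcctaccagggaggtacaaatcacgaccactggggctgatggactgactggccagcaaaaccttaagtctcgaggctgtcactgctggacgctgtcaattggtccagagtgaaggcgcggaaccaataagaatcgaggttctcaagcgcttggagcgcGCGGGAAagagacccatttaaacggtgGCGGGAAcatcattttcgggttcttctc
Cdc6 (chr11:98907901-98908200, plus strand): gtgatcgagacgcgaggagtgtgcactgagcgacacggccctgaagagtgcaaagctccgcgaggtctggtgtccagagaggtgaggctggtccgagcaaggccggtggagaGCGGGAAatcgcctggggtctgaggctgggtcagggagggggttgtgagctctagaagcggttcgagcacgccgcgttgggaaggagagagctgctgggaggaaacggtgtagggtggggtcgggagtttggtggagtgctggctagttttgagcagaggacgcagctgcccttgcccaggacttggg
Uhrf1 (chr17:56303087-56303386, plus strand): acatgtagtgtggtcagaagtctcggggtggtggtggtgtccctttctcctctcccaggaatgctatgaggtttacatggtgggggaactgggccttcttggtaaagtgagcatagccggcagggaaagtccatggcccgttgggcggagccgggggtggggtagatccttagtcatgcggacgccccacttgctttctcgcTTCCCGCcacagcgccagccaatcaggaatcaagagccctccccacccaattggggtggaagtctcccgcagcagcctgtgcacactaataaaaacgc
E2f1 (chr2:154569377-154569676, minus strand): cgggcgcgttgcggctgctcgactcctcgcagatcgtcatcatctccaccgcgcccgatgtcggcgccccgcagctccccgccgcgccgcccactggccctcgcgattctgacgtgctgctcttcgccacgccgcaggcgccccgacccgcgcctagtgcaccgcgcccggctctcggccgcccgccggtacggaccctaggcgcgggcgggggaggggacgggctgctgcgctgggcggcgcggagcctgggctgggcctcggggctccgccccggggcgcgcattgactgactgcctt

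The letters searched were TTGGCGC or else TTCCCGC or else TTCGCGC or else TTGCCGC, on either strand. The Dtl window held TTCCCGC at position -109 and TTGGCGC at position -7 from the start site, and the Pclaf window held the reverse strand form of TTCCCGC at positions -5 and 23. That form stood at position -138 in Cdc6, and Uhrf1 held TTCCCGC at position -48, while the window of Mcm10 held none of the 4 forms. The start sites listed for Cdc6 and E2f1 lie 442 and 466 bases inside the RefSeq gene from its 5′ end, so these windows are internal and do not cover the bases before the gene; that of E2f1 held none of the forms. In all, 14 of the members' 51 windows lay wholly inside the gene. Of the 49 members, 42 had a promoter in the RefSeq table, with 51 promoters in all, and 32 of these (62.7%) held an E2F form, against 16.8% of 11512 promoters of genes in the Tcon table and 9.57% of all 32851 promoters. The share was 60.9% of the 23 promoters of members that rose in Tcon and 64.3% of the 28 promoters of members that did not pass there. A CCAAT box was found in 60.8% of members' promoters, against 37.4% of all promoters, and the TTTGAA letters of the CHR element, known from mitosis genes, in 13.7% of members' promoters, against 12% of those of genes in the Tcon table and 17.9% of all. For the CCAAT box the share among genes in the Tcon table was 37.6%. Matches are letters in a window and not measured binding.

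Replication genes rose in Tcon of mice on venetoclax, and in Treg they were called at a share near that of all genes. In Tcon 21 of the 49 were higher with venetoclax and 0 lower at an adjusted p under 0.05 (limma, Benjamini-Hochberg over all 11171 genes), where 3.92% of all genes were higher and 2.99% lower (6.91% in either direction). A rise of at least 1 on the log2 scale was called for 10 members, against 1.18% of all genes. Of the 28 members with an unadjusted p under 0.05 in Tcon, only Rfc1 and Rpa2 were lower, and edgeR called 21 higher and 0 lower, DESeq2 22 and 0. The log2 change was positive for 40 members, with a median of 0.261 against 0.002 over all genes and a range of -0.18 to 2.47. All 4 venetoclax libraries lay above all 4 vehicle libraries for 23 members, against 8.78% of all genes, and below them for 0 members, against 7.47%. RNA came from bulk cells, so a larger share of cells in S phase and more transcript per cell cannot be told apart.

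**Figure D1:**
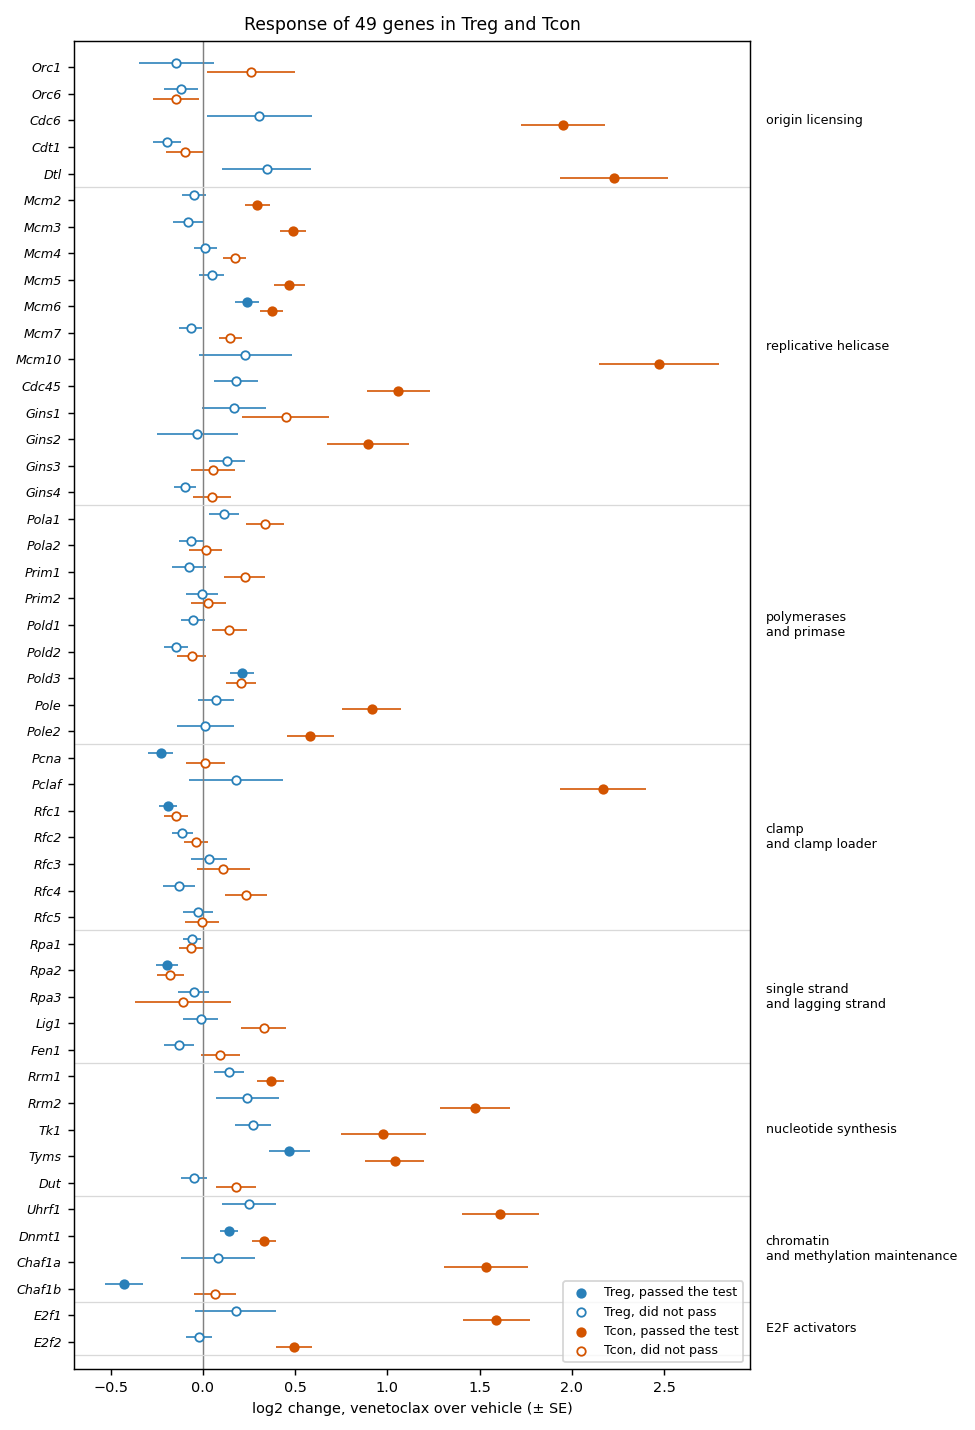
Log2 change of venetoclax over vehicle (x axis, points with SE bars, n = 4 libraries per group) for the 49 genes by role, Treg drawn above Tcon for each gene. Filled points passed limma at an adjusted p under 0.05; the largest Tcon changes are Mcm10 (2.47), Dtl (2.23) and Pclaf (2.17), while Treg changes lie between -0.43 and 0.47.

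Members at low levels rose further than abundant ones. Of the 18 members with a mean under 300 normalized counts over the 8 Tcon libraries, 12 rose, with a median log2 change of 1.01, and of the 31 at 300 or more, 9 rose, with a median of 0.149. Over all genes of the table, 163 of 3546 under that level and 275 of 7625 above it were higher. Per length, vehicle Tcon levels ran from 0.088 ± 0.04 RPKM for Mcm10 to 145 ± 14.1 RPKM for Pcna (SD, n = 4), and the Mcm2 to Mcm7 subunits lay between 12.2 and 27.5 RPKM. Mcm10, Cdc6, Dtl, Chaf1a, E2f1 and Gins2, each under 1 RPKM in vehicle Tcon, were all among the genes that rose, while Orc1 at 0.434 RPKM was not (log2 change 0.26, adjusted p = 0.58).

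Among the 5 licensing factors, Cdc6 and Dtl rose in Tcon and Orc1, Orc6 and Cdt1 did not pass. Cdc6 (Entrez 23834, chromosome 11, 98907709 to 98923942), the ATPase that loads the helicase at origins, had normalized counts of 139.6, 84.7, 101 and 97.8 in venetoclax Tcon, against 28.5, 21, 21.1 and 36.7 in vehicle Tcon. The lowest venetoclax library stood above the highest vehicle library by more than the range of the vehicle group, and the change passed (log2 change 1.95, SE 0.23, adjusted p = 0.00106). Dtl (Entrez 76843, chromosome 1, 191537356 to 191575544), the receptor through which a ubiquitin ligase destroys Cdt1 on replicating DNA, had 167, 159, 104 and 97.8 in venetoclax Tcon, against 43.3, 26, 15.8 and 27.8 in vehicle Tcon. Its groups did not overlap either, and its mean was 4.67-fold that of vehicle (log2 change 2.23, SE 0.29, adjusted p = 0.00181). Cdt1 itself (Entrez 67177, chromosome 8, 122568015 to 122573130), the licensing partner of Cdc6, had 850.0, 779.9, 971 and 739 in venetoclax Tcon, against 883, 907, 787 and 990.1 in vehicle Tcon. Those groups overlapped through most of their range (log2 change -0.10, SE 0.10, adjusted p = 0.635). The origin recognition subunits Orc1 and Orc6 had log2 changes of 0.26 and -0.15, neither past the threshold.

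Of the 12 helicase genes 7 rose in Tcon (Mcm2, Mcm3, Mcm5, Mcm6, Mcm10, Cdc45 and Gins2), and all 12 log2 changes were positive. Mcm10 (Entrez 70024, chromosome 2, 4990724 to 5012791), which joins the helicase when origins fire, had 76.4, 63.3, 51.4 and 43.5 in venetoclax Tcon, against 15.7, 8.0, 5.28 and 11.9 in vehicle Tcon, and its mean was 5.73-fold that of vehicle (log2 change 2.47, SE 0.33, adjusted p = 0.00179). The lowest venetoclax library was more than 2 times the highest vehicle library. Cdc45 (Entrez 12544, chromosome 16, 18780447 to 18811972), the subunit that turns the loaded ring into a working helicase with the GINS complex, had 173, 170.5, 129 and 131 in venetoclax Tcon, against 81.6, 85, 59.1 and 62.6 in vehicle Tcon (log2 change 1.06, SE 0.17, adjusted p = 0.00515). The core ring moved less. Mcm2 (Entrez 17216, chromosome 6, 88883474 to 88898780) had 2166, 2102, 2103 and 1898 in venetoclax Tcon, against 1803, 1665, 1584 and 1687 in vehicle Tcon. These groups did not overlap, at a mean 1.23-fold that of vehicle (log2 change 0.29, SE 0.068, adjusted p = 0.0282). Mcm3, Mcm5 and Mcm6, other subunits of the ring, rose by log2 0.49 (SE 0.071), 0.47 (SE 0.085) and 0.37 (SE 0.061), and Mcm4 and Mcm7 stood at 0.17 and 0.15 without passing. Of the GINS subunits, Gins2 passed (log2 change 0.90, SE 0.22, adjusted p = 0.0359), and Gins1, Gins3 and Gins4 had log2 changes of 0.45, 0.054 and 0.049. Leaving out 1 library ended the call of Mcm2 (adjusted p of 0.0544 to 0.114 without venetoclax library 1, 2 or 3 or vehicle library 2 or 4) and of Gins2 (0.0687 to 0.128 without venetoclax library 1, 2 or 3 or vehicle library 1, 2 or 4).

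Among the 9 polymerase and primase genes, Pole and Pole2 rose in Tcon and the other 7 did not pass. Pole, the catalytic subunit of the leading-strand polymerase, averaged 349 ± 50.7 in venetoclax Tcon and 186 ± 36.7 in vehicle Tcon (SD, n = 4 each; log2 change 0.91, SE 0.16, adjusted p = 0.00788), and its accessory subunit Pole2 averaged 638 ± 54.7 in venetoclax Tcon and 429.6 ± 76.3 in vehicle Tcon (log2 change 0.58, SE 0.13, adjusted p = 0.0212). Without venetoclax library 1, 2 or 3 or vehicle library 1, Pole2 had adjusted p of 0.0603 to 0.0699. Pola1, the catalytic subunit of the priming polymerase, had a log2 change of 0.34 and an adjusted p of 0.0766, which was 0.0366 in the fit with the replicate number as a block. Pola2, Prim1 and Prim2 of the same complex stood at 0.015, 0.23 and 0.030. The lagging-strand polymerase subunits Pold1, Pold2 and Pold3 stood at 0.14, -0.061 and 0.21.

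Of the 7 clamp genes only Pclaf rose in Tcon, and of the 5 single-strand and lagging-strand genes none passed. Pclaf (Entrez 68026, chromosome 9, 65890323 to 65903551), a small protein that binds the sliding clamp, had 371, 239.9, 189 and 235 in venetoclax Tcon, against 75.7, 48, 41.2 and 60.6 in vehicle Tcon. The lowest venetoclax value was more than 2 times the highest vehicle value (log2 change 2.17, SE 0.23, adjusted p = 0.000801). Pcna (Entrez 18538, chromosome 2, 132249286 to 132253180), the clamp itself and the member with the highest level per length, had 5272, 4939.7, 6209 and 4732 in venetoclax Tcon, against 4685, 4711, 5963 and 5592 in vehicle Tcon. Its groups overlapped throughout and their means differed by less than 1 SD of either group (log2 change 0.014, SE 0.11, adjusted p = 0.958). The clamp loader subunits Rfc1 to Rfc5 had log2 changes of -0.15, -0.037, 0.11, 0.23 and -0.006. Rpa1, Rpa2 and Rpa3, which coat single-stranded DNA, stood at -0.066, -0.18 and -0.11, and the flap endonuclease Fen1 at 0.094. The DNA ligase Lig1 stood at 0.33 (adjusted p = 0.138, and 0.0365 with the replicate number as a block). In this last group 2 genes had an unadjusted p under 0.05, Lig1 and Rpa2, and edgeR and DESeq2 called none.

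Nucleotide synthesis genes rose in Tcon in 4 of 5 cases (Rrm1, Rrm2, Tk1 and Tyms), and Dut, which clears dUTP, did not pass (log2 change 0.18). Rrm2 (Entrez 20135, chromosome 12, 24708254 to 24714146), the subunit of ribonucleotide reductase whose level follows the cell cycle, had 409, 301, 275 and 294 in venetoclax Tcon, against 138, 102, 83.4 and 140.0 in vehicle Tcon. The lowest venetoclax library stood well above the highest vehicle library, and the mean was 2.76-fold (log2 change 1.47, SE 0.19, adjusted p = 0.0015). Its partner Rrm1 (Entrez 20133, chromosome 7, 102441695 to 102469771), which carries the catalytic site, had 1258, 1132, 1115 and 1292 in venetoclax Tcon, against 958, 896, 909.8 and 950.4 in vehicle Tcon. The groups did not overlap, at a smaller ratio of means of 1.29 (log2 change 0.37, SE 0.072, adjusted p = 0.0138). Tyms (Entrez 22171, chromosome 5, 30038546 to 30073645), which makes thymidylate from dUMP, had 324, 251, 217 and 216 in venetoclax Tcon, against 107, 105, 137 and 136 in vehicle Tcon (log2 change 1.04, SE 0.16, adjusted p = 0.00395). The salvage enzyme Tk1, thymidine kinase, averaged 103 ± 23.7 in venetoclax Tcon and 52.1 ± 13.4 in vehicle Tcon (log2 change 0.98, SE 0.23, adjusted p = 0.031). Without venetoclax library 1 the adjusted p of Rrm1 was 0.0636, and without venetoclax library 1, 2 or 4 or vehicle library 2 that of Tk1 was 0.065 to 0.112.

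Chromatin and methylation maintenance genes rose in 3 of 4 cases, and both E2F activators rose. Uhrf1 (Entrez 18140, chromosome 17, 56303337 to 56323486), which finds hemimethylated DNA behind the fork, had 725, 602, 506 and 479.9 in venetoclax Tcon, against 233, 175, 123 and 238 in vehicle Tcon (log2 change 1.61, SE 0.21, adjusted p = 0.00166). Dnmt1 (Entrez 13433, chromosome 9, 20907206 to 20959888), the methyltransferase that Uhrf1 brings to that DNA, had 5469.5, 5252, 5081 and 5099.7 in venetoclax Tcon, against 4306, 4291, 3804 and 4247 in vehicle Tcon. Both sets of groups were apart, with a ratio of means of 3.01 for Uhrf1 and 1.26 for Dnmt1 (log2 change 0.33, SE 0.065, adjusted p = 0.0142). Chaf1a (Entrez 27221, chromosome 17, 56040416 to 56068026), the large subunit of the histone chaperone CAF-1, had 186, 158, 125 and 145 in venetoclax Tcon, against 74.7, 44, 35.9 and 60.6 in vehicle Tcon (log2 change 1.54, SE 0.23, adjusted p = 0.00343). Its partner subunit Chaf1b averaged 391 ± 50.0 in venetoclax Tcon and 373 ± 39.2 in vehicle Tcon and did not pass (log2 change 0.064, SE 0.11, adjusted p = 0.801). E2f1 (Entrez 13555, chromosome 2, 154559400 to 154569892), an activating E2F factor, had 219, 207, 138 and 153 in venetoclax Tcon, against 46.2, 63, 62.3 and 61.6 in vehicle Tcon. The 4 venetoclax libraries were each more than 2 times the highest vehicle library (log2 change 1.59, SE 0.18, adjusted p = 0.000943). E2f2, the related activator, averaged 907 ± 94.2 in venetoclax Tcon and 644 ± 64.5 in vehicle Tcon (log2 change 0.49, SE 0.10, adjusted p = 0.0154). Without venetoclax library 1 the adjusted p was 0.0684 for Dnmt1 and 0.064 for E2f2, and without venetoclax library 2 that of Dnmt1 was 0.0506.

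**Figure D2:**
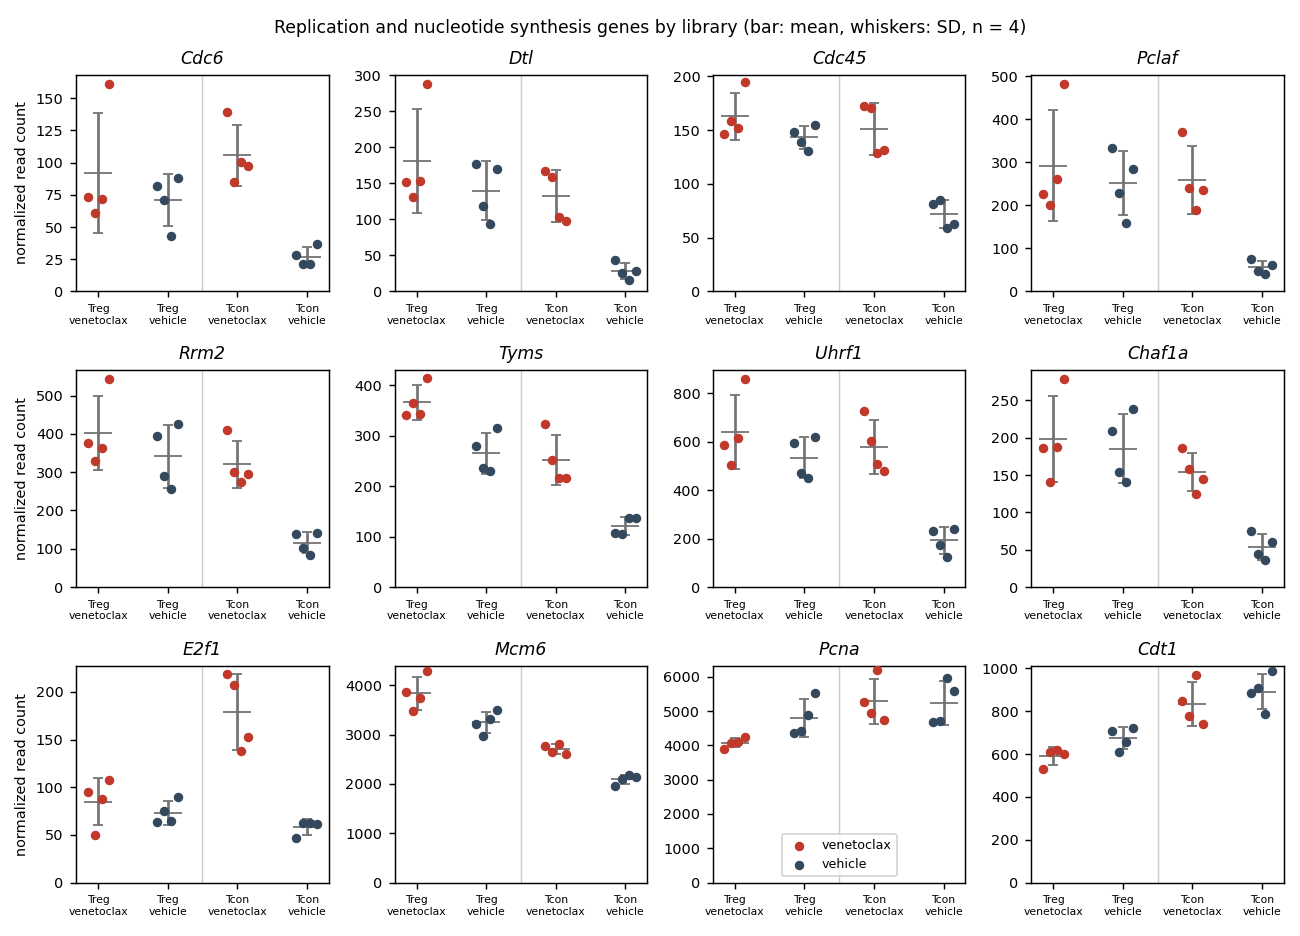
Normalized read counts (y axis, from 0) of 12 genes in every library, with the mean and SD of each group of 4; red points are venetoclax libraries and dark points vehicle libraries. In Tcon the groups are apart for the first 10 panels and overlap for Pcna and Cdt1; in Treg, venetoclax library 4 is the highest in Cdc6, Dtl, Pclaf, Rrm2 and Uhrf1.

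Every venetoclax Tcon library showed the rise. Against the vehicle mean, the median log2 distance of the 49 genes was 0.319, 0.286, 0.286 and 0.219 in venetoclax Tcon, against 0.043, -0.032, 0.022 and 0.031 in vehicle Tcon. Together the members took 2004 to 2118 CPM of each venetoclax Tcon library and 1707 to 1841 CPM of each vehicle Tcon library. The 20 genes of the mitosis list moved further, with 17 of 20 higher, where 3.92% of all genes were, and a median log2 change of 1.90. Their library medians were 1.56 to 2.33 in venetoclax Tcon, against -0.419 to 0.267 in vehicle Tcon. Top2a, the topoisomerase that untangles copied DNA, and Mki67, the Ki-67 antigen, had ratios of means of 4.17 and 3.88. Y-linked reads differed between the groups: Ddx3y had normalized counts of 1468, 6674, 3050 and 0.99 in venetoclax Tcon, against 0, 5664, 0 and 0 in vehicle Tcon. With the Ddx3y level as a covariate 13 of the 21 passed (Cdc6, Dtl, Mcm3, Mcm6, Mcm10, Cdc45, Pclaf, Rrm1, Rrm2, Tyms, Uhrf1, Chaf1a and E2f1). Without venetoclax libraries 1 and 3, whose Ddx3y lay between the low and the high libraries, 6 passed (Cdc6, Dtl, Pclaf, Rrm2, Uhrf1 and E2f1), in a fit of 2 against 4 libraries.

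**Figure D3:**
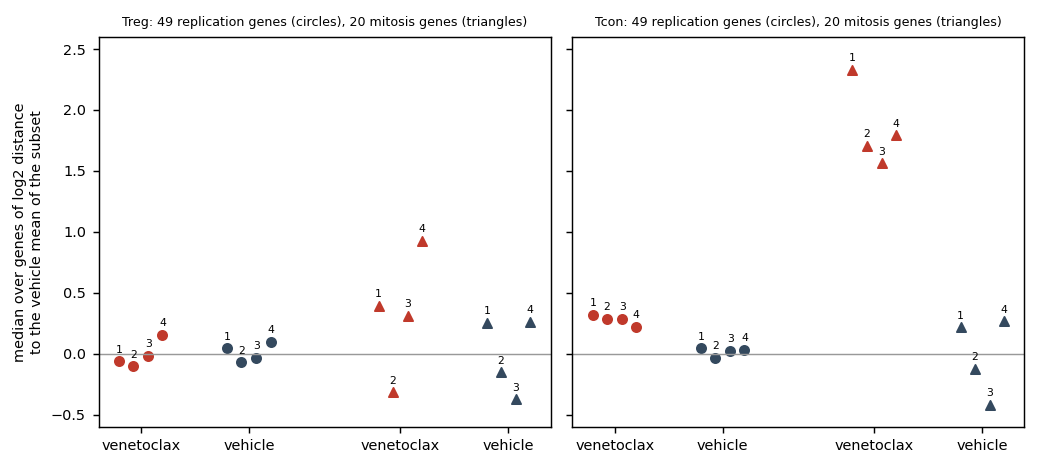
Median over genes of the log2 distance of each library from the vehicle mean of its subset (y axis), for the 49 replication genes (circles) and 20 mitosis genes (triangles), venetoclax left of vehicle and numbers giving the library. In Tcon all venetoclax circles (0.219 to 0.319) lie above all vehicle circles (-0.032 to 0.043); in Treg they mix (-0.104 to 0.157 with venetoclax and -0.069 to 0.096 with vehicle).

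In Treg 8 of the 49 members passed, 4 higher (Tyms, Mcm6, Pold3 and Dnmt1) and 4 lower (Chaf1b, Pcna, Rpa2 and Rfc1), where 10.7% of all 11067 genes were higher and 8.81% lower (19.6% in either direction). The share of members called is near that of all genes. All 4 venetoclax libraries lay above all 4 vehicle libraries for 3 members, against 12% of all genes, and below them for 5 members, against 10.7%. None of the 4 rises reached 1 on the log2 scale, as 0.605% of all genes did. The median log2 change was -0.012, against 0.005 over all genes, and 23 of 49 changes were positive. Tyms had 341, 365, 343 and 415 in venetoclax Treg, against 280.3, 235, 231 and 316 in vehicle Treg. All venetoclax libraries lay above all vehicle libraries (log2 change 0.47, SE 0.11, adjusted p = 0.0106). Mcm6 (Entrez 17219, chromosome 1, 128331575 to 128359705) had 3864, 3471, 3735 and 4281 in venetoclax Treg, against 3216, 2978, 3305 and 3489 in vehicle Treg, and the lowest venetoclax library was just under the highest vehicle one (log2 change 0.24, SE 0.066, adjusted p = 0.0221). Pold3 (Entrez 67967, chromosome 7, 100082110 to 100121502), an accessory subunit of the lagging-strand polymerase, had 1095, 1100.0, 984 and 1177 in venetoclax Treg, against 911, 993, 884 and 972 in vehicle Treg (log2 change 0.21, SE 0.066, adjusted p = 0.0392). For Mcm6 and Pold3 the groups overlapped at their edges. Dnmt1 had 4302, 4028, 4055 and 4189 in venetoclax Treg, against 3958, 3683, 3796 and 3593 in vehicle Treg and was at the edge of the threshold (log2 change 0.14, SE 0.047, adjusted p = 0.0491). Leaving out 1 library ended these calls except that of Tyms. Mcm6 had adjusted p of 0.0513 to 0.0672 without venetoclax library 1 or 4 or vehicle library 1 or 2. Pold3 had 0.0797 to 0.114 without venetoclax library 1, 2 or 4 or vehicle library 1 or 3. Dnmt1 had 0.0637 to 0.128 without any 1 venetoclax library or without vehicle library 2, 3 or 4. Nor did Dnmt1 pass in edgeR (adjusted p = 0.056) or with the replicate number as a block (0.0523). Ddx3y differed between the Treg groups too, with normalized counts of 1695, 5539, 2872 and 0.96 in venetoclax Treg, against 0, 5326, 0.97 and 0 in vehicle Treg. With the Ddx3y level as a covariate 4 members were higher in Treg: Tyms and Mcm6 passed, Pold3 and Dnmt1 did not (adjusted p = 0.0772 and 0.0668), and Rrm1 and Uhrf1 did (0.0157 and 0.0302).

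Falls in Treg were of similar size. Chaf1b (Entrez 110749, chromosome 16, 93883900 to 93906115) had 240.2, 263, 292 and 313 in venetoclax Treg, against 358, 327, 409 and 395 in vehicle Treg. Its groups did not overlap and its ratio of means was 0.744 (log2 change -0.43, SE 0.10, adjusted p = 0.0116). Pcna had 3906, 4078, 4086 and 4249 in venetoclax Treg, against 4360.1, 4404, 4898 and 5528 in vehicle Treg, all venetoclax libraries below all vehicle libraries (log2 change -0.23, SE 0.068, adjusted p = 0.0325). Rpa2 (Entrez 19891, chromosome 4, 132768360 to 132778746) had 806, 784, 786 and 832 in venetoclax Treg, against 882, 883, 967 and 942 in vehicle Treg (log2 change -0.20, SE 0.058, adjusted p = 0.0303). Rfc1 (Entrez 19687, chromosome 5, 65261852 to 65338617), the large subunit of the clamp loader, had 1679, 1559, 1607 and 1681 in venetoclax Treg, against 1837, 1803, 1915 and 1889 in vehicle Treg (log2 change -0.19, SE 0.049, adjusted p = 0.0159). Both were lower in every venetoclax library than in any vehicle library, as 10.7% of all Treg genes were. Chaf1b and Rfc1 kept their calls whichever library was left out, while Pcna had adjusted p of 0.0609 to 0.0957 and Rpa2 0.0583 to 0.0907 without venetoclax library 1, 2 or 3 or vehicle library 3 or 4. With the Ddx3y level as a covariate none of the 4 passed (adjusted p of 0.0582 for Chaf1b, 0.14 for Pcna, 0.11 for Rpa2 and 0.0637 for Rfc1).

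The genes with the largest Tcon rises did not pass in Treg, although Uhrf1 passed there with the Ddx3y covariate. Cdc6 had 73.4, 61, 71.5 and 161 in venetoclax Treg, against 81.8, 70.7, 42.8 and 88.4 in vehicle Treg (log2 change 0.31, SE 0.29, adjusted p = 0.488). In Treg its venetoclax library 4 stood far above the other 7 libraries, which overlapped. E2f1 had 94.5, 49.9, 87.9 and 108 in venetoclax Treg, against 63.3, 74.9, 64.3 and 89.3 in vehicle Treg, with the 2 groups overlapping (log2 change 0.18, SE 0.22, adjusted p = 0.607). Rrm2 had 375, 329, 363 and 543 in venetoclax Treg, against 395, 290.2, 255 and 426 in vehicle Treg (log2 change 0.24, SE 0.17, adjusted p = 0.35), and Rrm1 had 1270.1, 1254, 1346 and 1493 in venetoclax Treg, against 1300.2, 1040.3, 1184 and 1355 in vehicle Treg (log2 change 0.14, SE 0.082, adjusted p = 0.251). In both, the groups overlapped, and Rrm1 passed with the Ddx3y covariate. Mcm2 had 1624, 1543, 1454 and 1700.5 in venetoclax Treg, against 1677, 1459, 1681 and 1725 in vehicle Treg (log2 change -0.049, SE 0.066, adjusted p = 0.64). Cdt1 had 528, 608, 621 and 602 in venetoclax Treg, against 709, 609.6, 657 and 723 in vehicle Treg, with an unadjusted p under 0.05 and a negative change (log2 change -0.19, SE 0.076, adjusted p = 0.0921). The other Treg changes lay between -0.14 for Orc1 and 0.34 for Dtl among licensing genes, -0.10 (Gins4) and 0.23 (Mcm10) among helicase genes, -0.15 (Pold2) and 0.11 (Pola1) among polymerases, and -0.13 (Rfc4) and 0.18 (Pclaf) among clamp genes. Lig1, Fen1, Rpa1 and Rpa3 had -0.012, -0.13, -0.058 and -0.050, Tk1 and Dut 0.27 and -0.048, Uhrf1 and Chaf1a 0.25 and 0.084, and E2f2 -0.023. Of the 20 mitosis genes 0 passed in Treg by limma, edgeR or DESeq2, where limma called 19.6% of all genes. In limma 2 of them had an unadjusted p under 0.05, while 4 were higher with the Ddx3y covariate (Top2a, adjusted p = 0.0237, Ccna2, 0.0313, Kif11, 0.0391, and Mki67, 0.042). Their library medians were -0.318 to 0.925 in venetoclax Treg and -0.375 to 0.262 in vehicle Treg.

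The test of the difference itself, the change in Treg minus the change in Tcon over all 16 libraries, was negative and past the threshold for 10 members and positive for 0, where 0.965% of 10774 genes were lower and 0.334% higher (1.3% in either direction). By role these were Dtl among licensing factors, Mcm3, Mcm10 and Cdc45 of the helicase, Pole, Pclaf, Rrm2, Uhrf1 and Chaf1a, and E2f1. Of the 22 members with an unadjusted p under 0.05 all differences were negative, and edgeR called 10 lower and 0 higher, DESeq2 14 and 0. Mcm10 had the largest size, with log2 changes of 0.23 in Treg and 2.47 in Tcon, from Treg values of 56.7, 38.7, 70.5 and 92.2 in venetoclax Treg, against 61.3, 59.3, 36 and 57 in vehicle Treg (difference -2.24, SE 0.44, adjusted p = 0.017). Pclaf changed by 0.18 in Treg and 2.17 in Tcon, and its Treg values were 226, 200.5, 261 and 482 in venetoclax Treg, against 333, 229.9, 159 and 284 in vehicle Treg (difference -1.99, SE 0.40, adjusted p = 0.0199). Dtl had 152, 130.2, 154 and 287 in venetoclax Treg, against 177, 119, 93.5 and 170.1 in vehicle Treg (difference -1.88, SE 0.42, adjusted p = 0.0358). In all 3 genes the Treg groups overlapped while the Tcon groups did not. The difference was not particular to the 49 members. Of the 20 mitosis genes, limma called 7 lower and 0 higher, edgeR 5 and 0, and DESeq2 12 and 0. Their median difference was -1.52, against -0.242 for the 49 members.

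Uhrf1 had 585, 504, 615 and 858 in venetoclax Treg, against 595, 471, 449 and 618 in vehicle Treg (difference -1.36, SE 0.28, adjusted p = 0.0241). For E2f1 the log2 changes were 0.18 in Treg and 1.59 in Tcon (difference -1.41, SE 0.31, adjusted p = 0.0298). Mcm3 (Entrez 17215, chromosome 1, 20802966 to 20820312) had 1485, 1417, 1417 and 1858 in venetoclax Treg, against 1706, 1474, 1635 and 1686 in vehicle Treg. In Tcon it had 1937, 1969, 1903 and 1833 in venetoclax Tcon, against 1482, 1412, 1233 and 1332 in vehicle Tcon, and there the groups did not overlap (difference -0.57, SE 0.12, adjusted p = 0.0211). That difference was the smallest in size of the 10. Chaf1a, Rrm2, Cdc45 and Pole differed by -1.45, -1.23, -0.88 and -0.84. Members that passed in Tcon but not here, such as Mcm2 (difference -0.34, SE 0.10, adjusted p = 0.099), Tyms (difference -0.57, SE 0.20, adjusted p = 0.264) and Dnmt1 (difference -0.19, SE 0.073, adjusted p = 0.34), are not shown to differ between subsets. Treg and Tcon libraries of the same code deviated together, and with the code as a block 13 were lower, adding Cdc6 (adjusted p = 0.0158, against 0.0631 without it), Chaf1b (0.0447 against 0.183) and E2f2 (0.0155 against 0.0549).

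Mcm10 kept its call whichever of the 16 libraries was left out (adjusted p of 0.010 to 0.0468). The other 9 lost theirs in some of these fits, with 1 to 13 members called in all. The highest adjusted p in any of them was 0.0539 for Pclaf (lost without vehicle Treg library 1 or venetoclax Treg library 2), 0.058 for Mcm3, 0.0655 for Uhrf1, 0.0762 for E2f1, 0.0952 for Dtl, 0.103 for Chaf1a, 0.106 for Rrm2, 0.107 for Cdc45 and 0.113 for Pole. Fits that left out venetoclax Tcon library 1 or 2, venetoclax Treg library 1, 2 or 3, vehicle Tcon library 2, or vehicle Treg library 1 or 4 called 1 to 5. Some calls were also lost without venetoclax Tcon library 4 (Pole, Rrm2 and Chaf1a), vehicle Tcon library 1 (E2f1), 3 (Cdc45) or 4 (Dtl, Cdc45 and Pole), or vehicle Treg library 2 (Cdc45 and Pole) or 3 (Cdc45). Without venetoclax libraries 1 and 3 of both subsets none passed.

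In vehicle mice the genes that rose in Tcon were mostly higher in Treg than in Tcon. They were chosen by a comparison that used the same vehicle Tcon libraries, so this level is partly set by the choice. Over all 49 members, 27 had all vehicle Treg libraries above all vehicle Tcon libraries and 3 had all below, with a median ratio of 1.215. The 2 tables were normalized separately, so CPM are set side by side with no test. With venetoclax, 5 of the 21 genes had all 4 Treg libraries above all 4 Tcon libraries and 4 had all below (30.2% and 18.3% of all genes in both tables), with a median ratio of 1.12. With vehicle, 16 (76.2%) were all above and 1 (Pole2) all below, with a median ratio of 2.19, against 24.5% and 12% of all genes and a median of 1.03. The change in the ratio follows from the Tcon rise given above and is no separate result. Tk1 averaged 16 ± 1.87 CPM in venetoclax Treg and 4.38 ± 1.06 CPM in venetoclax Tcon, and 13.1 ± 1.35 CPM in vehicle Treg and 2.21 ± 0.613 CPM in vehicle Tcon (SD, n = 4 each). Mcm10 averaged 2.75 ± 0.987 CPM in venetoclax Treg and 2.49 ± 0.609 CPM in venetoclax Tcon, and 2.25 ± 0.514 CPM in vehicle Treg and 0.435 ± 0.199 CPM in vehicle Tcon. E2f1 was lower in Treg with venetoclax (3.62 ± 1.07 CPM in venetoclax Treg and 7.62 ± 1.71 CPM in venetoclax Tcon) and near level in vehicle mice (3.07 ± 0.516 CPM in vehicle Treg and 2.46 ± 0.345 CPM in vehicle Tcon). Pole2, lower in Treg, averaged 7.11 ± 1.65 CPM in venetoclax Treg and 27.1 ± 2.06 CPM in venetoclax Tcon, and 6.89 ± 0.961 CPM in vehicle Treg and 18.1 ± 2.97 CPM in vehicle Tcon. Mcm2 and Dnmt1 also had mean ratios under 1 in vehicle mice (0.967 and 0.899) and with venetoclax (0.767 and 0.795). Among the 28 members that did not pass in Tcon, 11 were all above and 2 all below in vehicle mice, with a median ratio of 1.08.

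**Figure D4:**
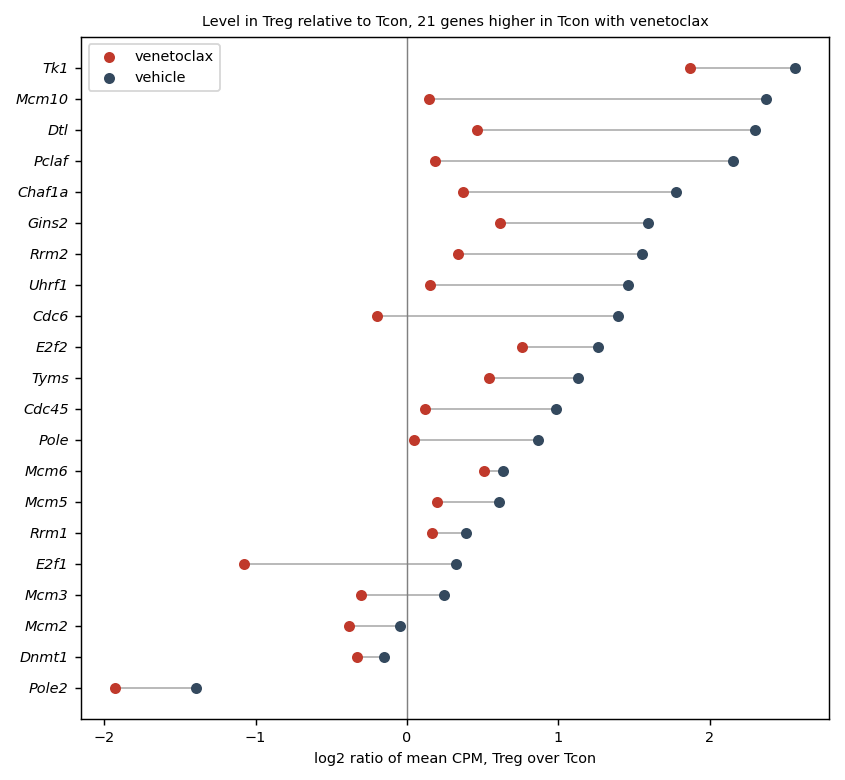
Log2 ratio of mean CPM, Treg over Tcon (x axis), for the 21 genes that rose in Tcon, with red points for venetoclax and dark points for vehicle mice. Each venetoclax point lies left of its vehicle point. The median ratio is 1.12 with venetoclax and 2.19 with vehicle, and Pole2, Mcm2 and Dnmt1 are below 0 in both.

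Other genes of these pathways showed a mixed picture. Of 34 further origin and fork genes, 7 rose and 1 fell in Tcon, and 2 rose and 4 fell in Treg (median log2 changes 0.071 and 0.003). By limma 6.91% of all genes were called in Tcon and 19.6% in Treg, and the Treg share of this list is near the latter. With the replicate block 8 rose and 2 fell in Tcon. In Tcon the histone chaperone Asf1b (log2 change 0.82, SE 0.13, adjusted p = 0.00518), the nuclease Dna2 (log2 change 0.89, SE 0.16, adjusted p = 0.00756) and the checkpoint mediator Clspn (log2 change 1.51, SE 0.32, adjusted p = 0.0178) rose, the last not without venetoclax library 1 or 2 (adjusted p up to 0.0703). Timeless, which ties the helicase to the polymerases, fell in both subsets, averaging 728 ± 83.7 in venetoclax Treg and 1127 ± 38.7 in vehicle Treg (log2 change -0.64, SE 0.077, adjusted p = 0.000226), and 935 ± 12.3 in venetoclax Tcon and 1429 ± 97.5 in vehicle Tcon (log2 change -0.61, SE 0.068, adjusted p = 0.000865). Its partner Tipin fell in Treg (log2 change -0.46, SE 0.12, adjusted p = 0.0167) and had a log2 change of -0.41 in Tcon that did not pass (adjusted p = 0.0785) but did with the replicate block (0.0388) and in DESeq2 (0.0264). The Treg fall of Tipin was lost without vehicle library 1 or venetoclax library 1 (up to 0.0518). Topbp1, which helps fire origins, fell in Treg (log2 change -0.22, SE 0.046, adjusted p = 0.00527), while the topoisomerase Top1 and Chtf8, a part of an alternative clamp loader, rose there (log2 0.25 and 0.25). Top1 rose in Tcon too (log2 change 0.27, SE 0.066, adjusted p = 0.0348; up to 0.135 without any 1 venetoclax library or vehicle library 1 or 2), and Chtf8 had 0.23 in Tcon (adjusted p = 0.0718, 0.0177 with the replicate block).

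Of 11 other deoxynucleotide genes, 0 rose and 2 fell in Tcon by limma, and 1 rose and 2 fell in Treg. Limma called 6.91% of all genes in Tcon and 19.6% in Treg. Among the 11 in Tcon, 7 had positive changes and 5 an unadjusted p under 0.05. There edgeR called 0 higher, DESeq2 2 and the replicate block 3. Tk2, the mitochondrial thymidine kinase, fell in both subsets (log2 change -0.33, SE 0.069, adjusted p = 0.00555 in Treg; log2 change -0.48, SE 0.060, adjusted p = 0.00142 in Tcon), opposite to Tk1 in Tcon. Rrm2b, the p53-induced form of the small reductase subunit, fell in Tcon (log2 change -0.40, SE 0.094, adjusted p = 0.0317), opposite to Rrm2; this call was lost without venetoclax library 1, 2 or 3 or vehicle library 1 or 2 (adjusted p up to 0.111) and with the Ddx3y covariate (0.139). Samhd1, which degrades deoxynucleotides, had a log2 change of 0.23 in Tcon that did not pass (adjusted p = 0.104) but did with the replicate block (0.0157) and in DESeq2 (0.0221). Nme2, a nucleoside diphosphate kinase, fell in Treg (log2 change -0.25, SE 0.063, adjusted p = 0.0133) and Dck, the deoxycytidine kinase, rose there (log2 change 0.21, SE 0.058, adjusted p = 0.0243), not without vehicle library 1 or 3 or venetoclax library 1 or 4 (up to 0.0755).

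Of 19 genes of base synthesis from small precursors, 1 rose in Tcon (3 with the replicate block or in DESeq2), where 6.91% of all genes were called, and 3 rose and 1 fell in Treg, where 19.6% were. These shares are near those of all genes. Atic, the last enzyme of inosine monophosphate synthesis, rose in both (log2 change 0.20, SE 0.055, adjusted p = 0.0218 in Treg; log2 change 0.48, SE 0.075, adjusted p = 0.00465 in Tcon). Umps and Ppat, enzymes of the pyrimidine and purine routes, rose in Treg (log2 0.27 and 0.19) and had 0.36 and 0.33 in Tcon (adjusted p = 0.0609 and 0.0612), which passed with the replicate block (0.025 and 0.00372) and in DESeq2 (0.0197 and 0.0339). In Treg the calls of Umps and Atic were lost without library 1 of either group (up to 0.0608 and 0.0726), and that of Ppat without vehicle library 1 or 2 or venetoclax library 1, 3 or 4 (up to 0.0914). Impdh1, of guanine nucleotide synthesis, fell in Treg (log2 change -0.28, SE 0.052, adjusted p = 0.00273).

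Among 17 further E2F, pocket protein and DREAM complex genes, 5 rose and 0 fell in Tcon (edgeR 5 and 0, DESeq2 5 and 1, the replicate block 6 and 2), and 3 rose and 0 fell in Treg (edgeR 2 and 0, DESeq2 3 and 0). Over all genes limma called 6.91% in Tcon and 19.6% in Treg, and the Treg share of this list is near the latter. The repressive factors E2f7 and E2f8, themselves E2F targets, rose in Tcon (log2 change 2.22, SE 0.30, adjusted p = 0.00211; log2 change 2.09, SE 0.43, adjusted p = 0.0162), from few reads: E2f7 had 25.5, 25.5, 20.2 and 24.7 in venetoclax Tcon, against 3.93, 4.0, 3.17 and 6.95 in vehicle Tcon. Tfdp1, the dimer partner of E2F proteins (log2 change 0.53, SE 0.070, adjusted p = 0.00179), and Foxm1, a driver of mitosis genes (log2 change 1.19, SE 0.26, adjusted p = 0.0192), rose as well. E2f8 and Foxm1 did not pass without venetoclax library 1 or 2 (up to 0.0655 and 0.0737), nor Foxm1 without vehicle library 1. In Treg the pocket protein Rbl2 (log2 change 0.18, SE 0.054, adjusted p = 0.0287), the repressive factor E2f4 (log2 change 0.14, SE 0.047, adjusted p = 0.0447) and Tfdp2 (log2 change 0.24, SE 0.060, adjusted p = 0.0148) rose. E2f4 did not pass in edgeR (0.0569), with the Ddx3y covariate (0.105), without any 1 venetoclax library or without vehicle library 1 or 3 (up to 0.127). Rbl2 was lost without venetoclax library 1, 3 or 4 or vehicle library 3 or 4 (up to 0.0862), and Tfdp2 without venetoclax library 4 (0.0502). Of the calls named in these lists, the Ddx3y covariate also ended those of Tipin, Nme2, Atic and Rbl2 in Treg and of Clspn, Top1, E2f8 and Foxm1 in Tcon.

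In the authors' deposited table the same members lead: the log2 fold change was 2.13 (SE 0.31, adjusted p = 1.18e-10) for Dtl and 1.57 (SE 0.22, adjusted p = 6.74e-12) for E2f1 in Tcon, and -0.37 (SE 0.12, adjusted p = 0.00296) for Chaf1b in Treg. By the adjusted p of the authors' deposited table, 22 of the 49 were higher and 0 lower in Tcon, and 4 higher and 4 lower in Treg.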

How the data were processed

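An Illumina NovaSeq was used to sequence total RNA of the sorted cells, per the labels' protocols. The submitters' processing notes name HISAT2, SAMtools and the mm10 build. No version, read counter, annotation or strand setting is given in the sources used here, so reads of a gene and of an antisense partner or pseudogene cannot be told apart. The deposited library columns hold a normalized signal: the authors divided each library's gene counts by a size factor. Within 0.01 all values of a library were whole multiples of the same step, which gave back the reads. A further column is the authors' mean signal of a gene over the table's 8 libraries. The authors' deposited log2 fold change and its standard error, and the authors' deposited p-value columns, come from a test that is not named in the tables. The lowest mean normalized count was 4.80 in the Tcon table and 8.48 in the Treg table, and all 49 genes were in both. Repeated lines (40 Tcon, 43 Treg) were dropped, and 18 Treg symbols shown as dates were restored by Entrez identifier.

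Within each table, log2 of the normalized count plus 1 was fitted with limma 3.58.1 (R 4.3.3, empirical Bayes with a mean-dependent prior) to set 4 venetoclax against 4 vehicle libraries, and Benjamini-Hochberg adjusted p-values over the whole table were called at 0.05. The difference between subsets was the interaction over 16 libraries and 10774 shared genes. Fold changes on this scale understate the change of genes with few counts. The labels call the libraries biological replicates but do not say that each came from 1 mouse. The p-values measure only the spread between these libraries, part of which may be technical. Ddx3y had normalized counts of 0, 5664, 0 and 0 in vehicle Tcon, so those libraries were not all drawn from the same animals. edgeR 4.0.16 and DESeq2 1.42.0 on the recovered reads, other pseudocounts, filters and scalings, and fits without single libraries were alternatives. CPM are recovered reads scaled to a common library total, and RPKM divide them by the exon length in the GENCODE basic annotation. The fits were tested on simulated counts.

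Whether replicate numbers pair libraries was checked by correlating deviations from group means. In Tcon the same-numbered venetoclax and vehicle libraries had r of 0.119, 0.555, 0.614 and 0.272. Venetoclax library 1 had higher r with vehicle library 2 (0.292) and vehicle library 4 (0.223) than with vehicle library 1. The labels state no pairing by number, so it is not settled. Values with the block are given as an alternative fit where they change a call. In Treg the r values were -0.039, 0.414, 0.256 and 0.385. There venetoclax library 1 had a higher r with vehicle library 2 (0.186) than with vehicle library 1. Venetoclax libraries 2, 3 and 4 had their highest r with the same-numbered vehicle library. Pairing by number is not settled in Treg either. Treg and Tcon libraries of the same code had r of 0.461 to 0.614 with venetoclax and 0.466 to 0.766 with vehicle.

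The members and all lists were chosen with earlier results of these data known. Values of every library are given for the 8 called members of each subset with the largest log2 change and a mean of at least 50 normalized counts, for Mcm2, Pcna, Cdc6, Cdt1, Rrm1, Rrm2, Tyms, Dnmt1 and E2f1, and for the 6 members with the smallest p of the subset difference; of other lists up to 4 genes with the smallest p per subset are named, and further ones were chosen after their values were seen. A gene that this rule also names is not reported here.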

Additional observations from a re-analysis of the deposited data

Results flagged for a closer look

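In 12 of 196 groups of 4 libraries checked, 1 library stood farther from the others than Dixon's 95% limit, where chance gives about 1 in 20 groups. Of these, 6 were venetoclax Treg library 4 as the highest of its group: 161.3 normalized counts of Cdc6, 287.1 of Dtl, 1857.9 of Mcm3, 1849.3 of Mcm5, 116.2 of Gins2 and 477.2 of Rfc5. That library also had the highest median of the mitosis genes in Treg, 0.925 on the log2 scale against the vehicle mean. Elsewhere in Treg, venetoclax library 3 was high for Pola2 (858.0), vehicle library 1 high for Rfc5 (499.3) and vehicle library 3 low for Mcm10 (36.0). In Tcon, venetoclax library 2 was low for Orc6 (335.8), vehicle library 3 low for Dnmt1 (3803.8) and vehicle library 1 low for E2f1 (46.2). Without vehicle library 3 or vehicle library 1 the Tcon rises of Dnmt1 and E2f1 still passed.

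The response to venetoclax differed between the subsets by limma's interaction test for 10 genes, each lower in Treg than in Tcon. The change in Treg minus the change in Tcon, on the log2 scale, was -2.243 for Mcm10, -1.991 for Pclaf, -1.882 for Dtl, -1.452 for Chaf1a, -1.413 for E2f1, -1.361 for Uhrf1, -1.233 for Rrm2, -0.879 for Cdc45, -0.844 for Pole and -0.568 for Mcm3.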

How the results depend on the processing

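Depth was even across libraries, and the spread between libraries set the precision; genes near a mean of 50 normalized counts or under have the widest errors. In Tcon the count of 21 genes higher was 13 with the Ddx3y level as a covariate and 6 without venetoclax libraries 1 and 3, and 14 to 23 when single libraries were left out; none was lower in any of these fits. In Treg the 4 higher were 2 with upper quartile scaling, 1 without library 3 of both groups, 1 without venetoclax libraries 1 and 3, and 1 to 3 without single libraries; the 4 lower were 0 with the Ddx3y covariate, 0 without library 3 of both groups, 0 without venetoclax libraries 1 and 3, and 2 to 5 without single libraries. For the subset difference the 10 lower were 0 without venetoclax libraries 1 and 3 and 1 to 13 without single libraries. The cause was not tested; fewer libraries enter each of these fits except those with a covariate or another scaling. Pseudocounts of 0.5 and 8, a filter on a mean of 50, TMM scaling, edgeR and DESeq2 kept each count within 1.5 times of that reported. With the replicate number as a block, 23 genes were higher in Tcon, 4 higher and 4 lower in Treg, and 13 lower for the subset difference. Among the 49 genes no call in Tcon was lost with it, and those gained were Pola1 and Lig1. In Treg the block ended the call of Dnmt1 (adjusted p = 0.0523) and added that of Tk1 as higher (adjusted p = 0.0494). Of the other lists in Tcon, origin and fork genes had 8 higher and 2 lower with the block, deoxynucleotide genes 3 and 2, base synthesis 3 and 0, and E2F and DREAM genes 6 and 2; of the mitosis genes 3 were higher in Treg. The median log2 changes moved by less than the spread between libraries in every setting. Over 19 settings per subset and 27 for the difference, no called value changed its sign, and sign changes occurred among uncalled values in 9 genes of Tcon, 18 of Treg and 14 of the difference.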
